A study of Mus musculus with 11 samples.

Results

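The genes of the interleukin-1 (IL-1), IL-18 and IL-33 receptor family were followed across 3 populations of CD4+ T cells from mouse spleen. The family was taken as Il1rl1, Il1r1, Il1r2, Il18, Il18r1 and Il18rap, that is 5 receptor genes and the cytokine gene Il18. Each was found through the RefSeq transcript in the probe set identifiers of a custom Affymetrix glycan gene chip. All 6 genes were on the array, among 909 genes that could be named, and they had 7 of its 1246 probe sets. Il1rl1 had 2 probe sets, and the one with the higher mean over all arrays stands for the gene unless stated otherwise. No low-value filter was applied, so all 6 genes entered every comparison.

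Cells were sorted by flow cytometry from female C57BL/6 mice, and the labels name no genetic change or treatment in any group. Treg cells were CD4+ CD25+ CD45RBlow (n = 3, replicates 1, 2 and 4). CD45RBlow cells were CD4+ CD25- CD45RBlow and are described in the labels as activated or memory cells (n = 4). CD45RBhigh cells were CD4+ CD25- CD45RBhigh and are described there as naive (n = 4). The mice of the CD25- samples were naive and 4 to 6 weeks old, and no age is given for Treg samples, so age and population cannot be told apart in comparisons with Treg cells. CD25 is a chain of the IL-2 receptor. CD45RB is a form of the phosphatase CD45 that naive CD4+ cells carry at a high level. Every sample was hybridised to 1 array. Nothing in the labels says that replicates came from separate animals, so the spread behind each p-value may be technical.

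Receptors of this family carry immunoglobulin-like domains outside the cell. Most signal through a TIR domain inside it, which recruits MyD88 and activates NF-kappaB. A ligand-binding chain pairs with an accessory chain: Il1r1 binds IL-1, Il1rl1 (also called ST2) binds IL-33, and both use the accessory chain made by Il1rap. Il18r1 binds IL-18 and uses Il18rap as its accessory chain. Il1r2 binds IL-1 but lacks a TIR domain and acts as a decoy. In CD4+ T cells IL-18 receptors are best known from type 1 helper cells, ST2 from type 2 helper cells and a part of tissue Treg cells, and Il1r1 from type 17 helper cells.

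All 5 receptor genes lie side by side on mouse chromosome 1. In the GRCm38.p6 RefSeq annotation the order of protein-coding genes there is Il1r2, Il1r1, Il1rl2, Il1rl1, Il18r1 and Il18rap, with Il1rl2, a receptor for IL-36, as the only further gene between them. Il18 lies on chromosome 9. RefSeq gives 10 promoter windows for the 6 genes, each with 250 bases before and 50 after a transcription start, 300 bases in all. Il1rl1 has 2 of these windows, 10059 bases apart. The windows below were chosen because they belong to the 3 receptor genes with the largest differences between populations. They are read 5′ to 3′ on the plus strand, and capitals mark GATAA on either strand (TTATC is its reverse complement), the core that GATA factors bind.

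Il1rl1, upstream start, chr1:40429320-40429619: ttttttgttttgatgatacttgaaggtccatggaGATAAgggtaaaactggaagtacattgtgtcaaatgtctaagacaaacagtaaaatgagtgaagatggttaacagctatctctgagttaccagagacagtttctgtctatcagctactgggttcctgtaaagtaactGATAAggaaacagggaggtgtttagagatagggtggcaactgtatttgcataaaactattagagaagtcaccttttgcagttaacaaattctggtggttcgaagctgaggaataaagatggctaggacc

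Il1rl1, downstream start, chr1:40439379-40439678: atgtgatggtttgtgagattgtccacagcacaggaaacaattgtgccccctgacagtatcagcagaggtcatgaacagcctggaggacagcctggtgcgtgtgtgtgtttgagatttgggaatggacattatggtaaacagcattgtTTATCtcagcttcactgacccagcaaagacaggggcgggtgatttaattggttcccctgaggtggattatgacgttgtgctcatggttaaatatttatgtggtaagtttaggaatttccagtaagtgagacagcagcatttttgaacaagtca

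Il1r2, chr1:40085843-40086142: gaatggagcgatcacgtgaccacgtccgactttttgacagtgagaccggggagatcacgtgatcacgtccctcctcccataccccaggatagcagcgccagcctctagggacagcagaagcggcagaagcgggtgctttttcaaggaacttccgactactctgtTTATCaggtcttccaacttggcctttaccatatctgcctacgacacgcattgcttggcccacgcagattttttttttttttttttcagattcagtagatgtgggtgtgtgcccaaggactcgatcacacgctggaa

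Il18rap, chr1:40515112-40515411: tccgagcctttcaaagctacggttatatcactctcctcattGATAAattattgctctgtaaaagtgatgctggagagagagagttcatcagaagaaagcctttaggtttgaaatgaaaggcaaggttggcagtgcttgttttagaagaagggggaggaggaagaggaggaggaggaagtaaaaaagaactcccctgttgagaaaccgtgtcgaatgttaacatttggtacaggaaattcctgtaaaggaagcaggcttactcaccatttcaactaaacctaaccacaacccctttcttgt

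GATAA was found in 4 of the 10 windows, which are those printed here, against 25.4% of all 32851 windows in the RefSeq table. TGTGGT, a core of RUNX sites, was found in 4 of 10 against 16.8%, and TTCNNNGAA, a core of STAT sites, in 2 of 10 against 8.30%. TGANTCA, a core of AP-1 sites, was in 0 of 10 against 7.81%. All motifs were searched on both strands, and the windows of Il18r1 overlap in part. A match describes the letters only.

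Values are log2 expression from Robust Multichip Average (RMA), and differences are on the log2 scale. Array medians lay between 4.85 and 4.94. Means below the first quartile of the table, 3.64, were read as near background, and a difference against such a mean as one that may be understated. Il2ra encodes CD25, on which the cells were sorted, and averaged 9.84 ± 0.17 in Treg, 6.17 ± 0.36 in CD45RBlow and 4.07 ± 0.27 in CD45RBhigh cells (SD, n = 3, 4 and 4). Cd2 was the only measured gene of 8 T cell markers and read 12.26 to 12.39 in Treg, 11.69 to 11.93 in CD45RBlow and 11.75 to 11.87 in CD45RBhigh arrays. Foxp3 and Cd4 were not analysed here. A gene is said to have risen or fallen where its adjusted p in limma, over all 1246 probe sets, was under 0.05.

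The 6 genes fell into a group that was highest in Treg cells and a group that was highest in CD45RBlow cells. Il1rl1, Il1r2 and Il18 rose in Treg cells over both CD25- populations, and rose in CD45RBlow over CD45RBhigh cells. Il18rap, Il1r1 and Il18r1 fell in Treg relative to CD45RBlow cells and rose in CD45RBlow over CD45RBhigh cells, and did not pass the test between Treg and CD45RBhigh cells. These are RNA levels of sorted populations, in which fewer cells with a transcript and less of it per cell cannot be told apart.

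**Figure D1:**
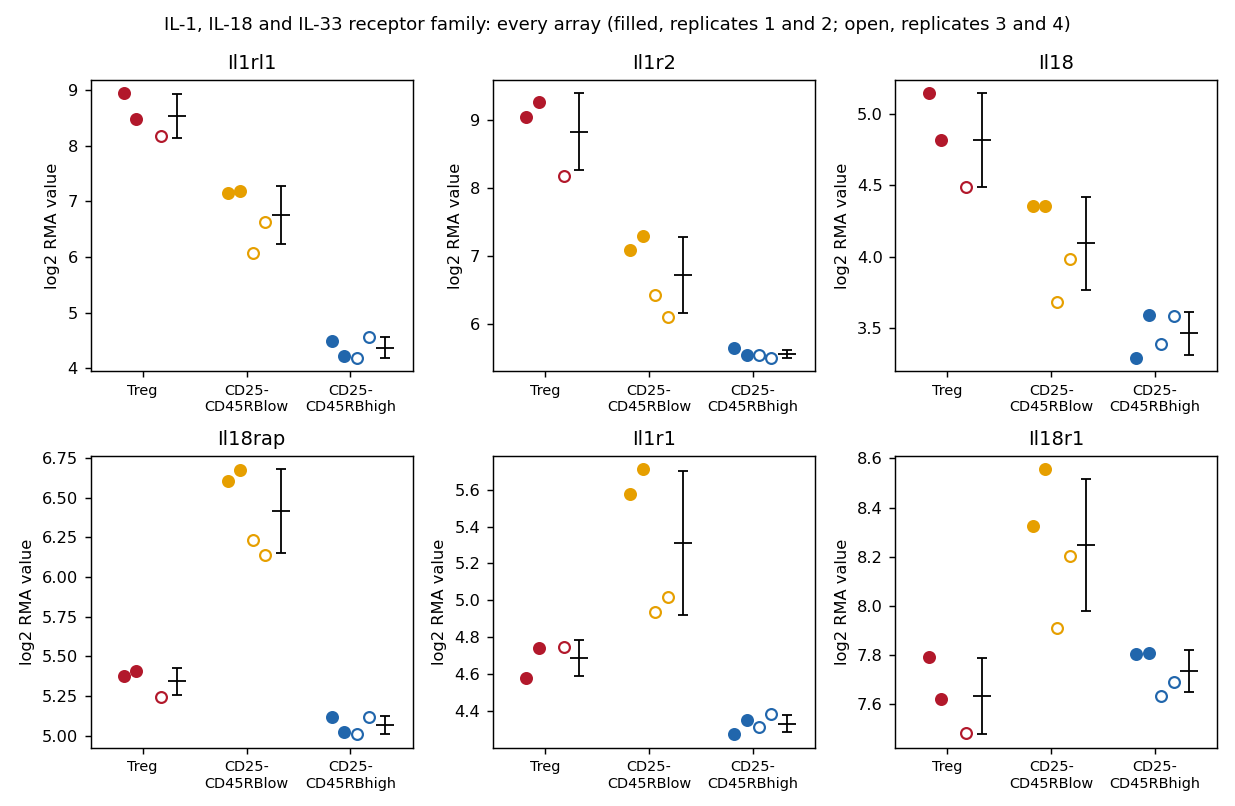
Log2 RMA value (vertical axis, a separate range for each gene) of the 6 genes on every array of the Treg, CD25- CD45RBlow and CD25- CD45RBhigh populations, with the mean and SD as bars; filled points are replicates 1 and 2 and open points replicates 3 and 4. Il1rl1, Il1r2 and Il18 descend from Treg to CD45RBhigh arrays without overlap, whereas Il18rap, Il1r1 and Il18r1 are highest on the CD45RBlow arrays.

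In Treg against CD45RBhigh cells 3 of the 6 genes passed, all of them higher in Treg cells. The share over the whole array was 18.9%, made of 10.3% higher and 8.59% lower in Treg cells. The arrays of the populations did not overlap for 5 of the 6 genes, against 25.0% of all probe sets. The median absolute difference was 0.86 over the 6 genes and 0.11 over all probe sets. In Treg against CD45RBlow cells all 6 passed, 3 higher and 3 lower, where the share over the whole array was 12.5%, made of 6.74% higher and 5.78% lower. With the replicate number as a block all 6 still passed, and the probe sets that passed numbered 245 in place of 156. None of the 6 overlapped, against 21.3% of all probe sets without overlap, and the median absolute difference was 0.90 against 0.10 over all.

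In CD45RBlow against CD45RBhigh cells all 6 genes rose, where the share over the whole array was 12.6%, made of 7.62% higher and 4.98% lower in CD45RBlow cells. With the replicate block all 6 still rose, and 271 probe sets passed in place of 157. The arrays did not overlap for any of the 6, against 17.8% of all probe sets without overlap. The median difference was 1.07 over the 6 genes and -0.08 over all. The comparisons share arrays and are not independent of each other. The 6 genes were chosen with results of these arrays known, so their share of calls describes them and tests nothing.

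**Figure D2:**
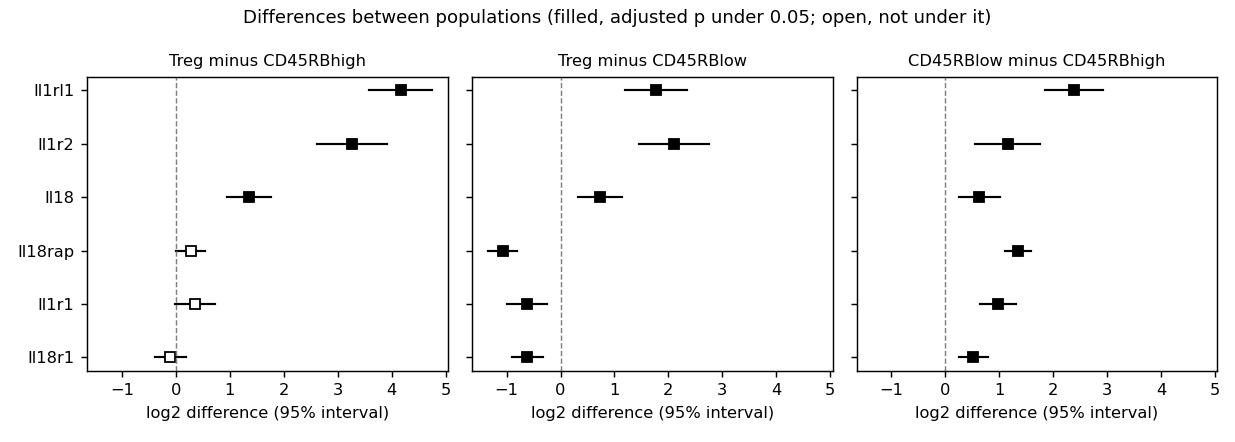
Log2 difference with its 95% interval (horizontal axis) of the 6 genes in the 3 comparisons, Treg minus CD45RBhigh, Treg minus CD45RBlow and CD45RBlow minus CD45RBhigh; filled squares have an adjusted p under 0.05. Il1rl1, Il1r2 and Il18 lie right of 0 in every panel, and Il18rap, Il1r1 and Il18r1 lie left of 0 only in Treg minus CD45RBlow, apart from the open square of Il18r1 at -0.10 in Treg minus CD45RBhigh.

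Il1rl1, the IL-33 receptor, had the largest difference of the family between Treg and CD45RBhigh cells. It read 8.95, 8.49 and 8.17 in Treg replicates 1, 2 and 4. It read 7.15, 7.19, 6.07 and 6.63 in CD45RBlow replicates 1 to 4, and 4.50, 4.23, 4.19 and 4.57 in CD45RBhigh replicates 1 to 4. The 3 populations did not overlap, and the lowest Treg array lay above the highest CD45RBlow array. Means were 8.54 ± 0.39 in Treg, 6.76 ± 0.52 in CD45RBlow and 4.37 ± 0.19 in CD45RBhigh cells (SD, n = 3, 4 and 4). Il1rl1 was 17.9-fold higher in Treg than in CD45RBhigh cells (log2 4.16, SE 0.26, adjusted p = 4.78e-07). It was 3.42-fold higher in Treg than in CD45RBlow cells (1.78, SE 0.26, adjusted p = 0.000735) and 5.24-fold higher in CD45RBlow than in CD45RBhigh cells (2.39, SE 0.24, adjusted p = 4.47e-05). All 3 calls held when any 1 array was left out.

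The other probe set of Il1rl1, designed on a different RefSeq transcript of the gene, gave smaller differences. It carries the suffix s, so its signal may not be specific to 1 transcript. Its means lay close to the cut for background of 3.64, at 4.61 in Treg, 4.11 in CD45RBlow and 4.02 in CD45RBhigh cells. It read 4.80, 4.45 and 4.59 in Treg replicates 1, 2 and 4. It read 4.16, 4.10, 4.13 and 4.04 in CD45RBlow replicates 1 to 4, and 3.86, 4.07, 4.10 and 4.04 in CD45RBhigh replicates 1 to 4. Only the Treg arrays stood apart here, and the CD25- populations overlapped. The difference was 0.60 between Treg and CD45RBhigh cells (SE 0.09, adjusted p = 0.000445) and 0.51 between Treg and CD45RBlow cells (adjusted p = 0.00239). Between CD45RBlow and CD45RBhigh cells it was 0.09 (95% interval -0.09 to 0.27, adjusted p = 0.484).

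The unequal change of the 2 probe sets was tested as their difference within each array. This averaged 3.92 ± 0.30 in Treg, 2.66 ± 0.52 in CD45RBlow and 0.36 ± 0.27 in CD45RBhigh arrays (SD, n = 3, 4 and 4). It was larger by 3.57 in Treg than in CD45RBhigh arrays and by 1.27 in Treg than in CD45RBlow arrays (two-sided exact permutation p = 0.0571 for each, the smallest that 35 arrangements allow). In CD45RBlow it was larger by 2.30 than in CD45RBhigh arrays (two-sided exact permutation p = 0.0286, the smallest that 70 arrangements allow). Adjusted over these 3 tests each p was 0.0571. The groups did not overlap in any of the 3, and a design of this size cannot pass 0.05 after adjustment. The transcripts behind the probe sets were not identified. The dimmer probe set lay close to the cut for background, and the part of this in the unequal change was not tested. Taking the mean of both probe sets for the gene gave 2.38 for Treg minus CD45RBhigh, 1.14 for Treg minus CD45RBlow and 1.24 for CD45RBlow minus CD45RBhigh, and every call held.

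**Figure D3:**
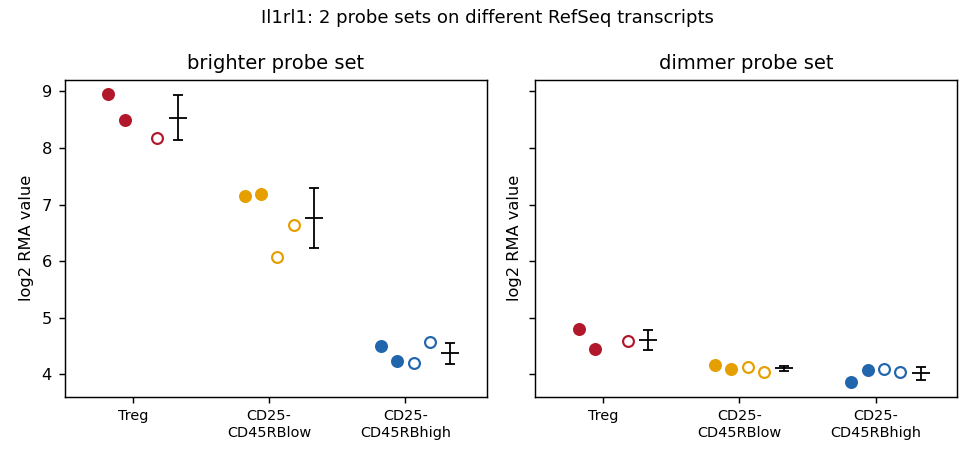
Log2 RMA value (vertical axis, shared) of the brighter and the dimmer probe set of Il1rl1 on every array of the 3 populations, with the mean and SD as bars. The brighter set separates all 3 populations, whereas the dimmer set separates only the Treg arrays, which lie between 4.45 and 4.80.

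Il1r2, the decoy receptor for IL-1, had the largest difference of the family between Treg and CD45RBlow cells. It read 9.04, 9.25 and 8.18 in Treg replicates 1, 2 and 4. It read 7.08, 7.29, 6.42 and 6.10 in CD45RBlow replicates 1 to 4, and 5.65, 5.54, 5.55 and 5.50 in CD45RBhigh replicates 1 to 4. The populations did not overlap, and the CD45RBhigh arrays lay close together. Means were 8.82 ± 0.57 in Treg, 6.72 ± 0.56 in CD45RBlow and 5.56 ± 0.06 in CD45RBhigh cells (SD, n = 3, 4 and 4). Il1r2 was 9.60-fold higher in Treg than in CD45RBhigh cells (log2 3.26, SE 0.30, adjusted p = 9.67e-06) and 4.29-fold higher in Treg than in CD45RBlow cells (2.10, SE 0.30, adjusted p = 0.000489). In CD45RBlow it was 2.24-fold higher than in CD45RBhigh cells (1.16, SE 0.27, adjusted p = 0.0162). This last call ended without CD45RBlow replicate 1 (1.04, adjusted p = 0.0580).

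Il18, the cytokine that Il18r1 and Il18rap bind, lay close to the cut for background. It read 5.14, 4.82 and 4.49 in Treg replicates 1, 2 and 4. It read 4.35, 4.35, 3.68 and 3.98 in CD45RBlow replicates 1 to 4, and 3.29, 3.59, 3.39 and 3.58 in CD45RBhigh replicates 1 to 4. The order of the populations was that of Il1rl1 and Il1r2, again without overlap, but CD45RBlow replicate 3 lay only just above the highest CD45RBhigh array. Means were 4.82 ± 0.33 in Treg, 4.09 ± 0.32 in CD45RBlow and 3.46 ± 0.15 in CD45RBhigh cells (SD, n = 3, 4 and 4). The last of these was near background, so differences from it may be understated.

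Il18 was at least 2.55-fold higher in Treg than in CD45RBhigh cells (log2 1.35, SE 0.19, adjusted p = 0.000273). It was 1.65-fold higher in Treg than in CD45RBlow cells (0.72, SE 0.19, adjusted p = 0.0245). It was at least 1.55-fold higher in CD45RBlow than in CD45RBhigh cells (0.63, SE 0.17, adjusted p = 0.0352). The call between Treg and CD45RBlow cells ended without Treg replicate 1 (0.56, adjusted p = 0.111), Treg replicate 2 (adjusted p = 0.0771) or CD45RBlow replicate 4 (adjusted p = 0.0602). The call between CD45RBlow and CD45RBhigh cells ended without CD45RBlow replicate 1 (adjusted p = 0.108) or 2 (0.103), CD45RBhigh replicate 1 (0.0923), 2 (0.0522) or 3 (0.0835), or Treg replicate 2 (0.0534).

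Il18rap, the accessory chain of the IL-18 receptor, was highest in CD45RBlow cells. It read 5.38, 5.41 and 5.24 in Treg replicates 1, 2 and 4. It read 6.61, 6.67, 6.24 and 6.14 in CD45RBlow replicates 1 to 4, and 5.12, 5.02, 5.01 and 5.12 in CD45RBhigh replicates 1 to 4. The CD45RBlow arrays stood well above all others, and the lowest Treg array lay just above the highest CD45RBhigh array. Means were 5.34 ± 0.09 in Treg, 6.41 ± 0.26 in CD45RBlow and 5.07 ± 0.06 in CD45RBhigh cells (SD, n = 3, 4 and 4). Il18rap was 2.10-fold lower in Treg than in CD45RBlow cells (log2 -1.07, SE 0.12, adjusted p = 9.995e-05). It was 2.54-fold higher in CD45RBlow than in CD45RBhigh cells (1.35, SE 0.11, adjusted p = 1.16e-05), and both calls held when any 1 array was left out. Treg and CD45RBhigh cells differed by 0.28 (95% interval 0.01 to 0.54, adjusted p = 0.151), which passed with only the arrays of these populations in the fit (adjusted p = 0.0302).

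Il18r1, the chain that binds IL-18, was also highest in CD45RBlow cells, with smaller differences. It read 7.79, 7.62 and 7.48 in Treg replicates 1, 2 and 4. It read 8.32, 8.56, 7.91 and 8.20 in CD45RBlow replicates 1 to 4, and 7.80, 7.81, 7.63 and 7.69 in CD45RBhigh replicates 1 to 4. The CD45RBlow arrays lay above all others, and Treg and CD45RBhigh arrays overlapped. Means were 7.63 ± 0.16 in Treg, 8.25 ± 0.27 in CD45RBlow and 7.73 ± 0.09 in CD45RBhigh cells (SD, n = 3, 4 and 4). Il18r1 was 1.53-fold lower in Treg than in CD45RBlow cells (log2 -0.62, SE 0.13, adjusted p = 0.00926). In CD45RBlow it was 1.43-fold higher than in CD45RBhigh cells (0.52, SE 0.12, adjusted p = 0.0168). Without CD45RBlow replicate 1 this call was lost (0.49, adjusted p = 0.0562). Treg minus CD45RBhigh was -0.10 (95% interval -0.39 to 0.19, adjusted p = 0.696).

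Il1r1, the signalling receptor for IL-1, had its highest level in CD45RBlow cells too. It read 4.58, 4.74 and 4.75 in Treg replicates 1, 2 and 4. It read 5.58, 5.71, 4.94 and 5.02 in CD45RBlow replicates 1 to 4, and 4.27, 4.35, 4.32 and 4.38 in CD45RBhigh replicates 1 to 4. No populations overlapped, although CD45RBlow replicates 3 and 4 lay nearer to the Treg arrays than to CD45RBlow replicates 1 and 2. Means were 4.69 ± 0.10 in Treg, 5.31 ± 0.39 in CD45RBlow and 4.33 ± 0.05 in CD45RBhigh cells (SD, n = 3, 4 and 4). Il1r1 was 1.97-fold higher in CD45RBlow than in CD45RBhigh cells (log2 0.98, SE 0.15, adjusted p = 0.00118), which held when any 1 array was left out.

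In Treg cells Il1r1 was 1.54-fold lower than in CD45RBlow cells (log2 -0.62, SE 0.17, adjusted p = 0.0313). That call ended without Treg replicate 1 (adjusted p = 0.117), 2 (0.0771) or 4 (0.0650), and without CD45RBlow replicate 1 (0.0891) or 2 (0.0616). It also ended with only the arrays of the populations compared in the fit (adjusted p = 0.0987), as did that of Il18 (adjusted p = 0.0686). Treg and CD45RBhigh cells differed by 0.36 in Il1r1 (95% interval -0.01 to 0.73, adjusted p = 0.182), which passed with only their own arrays in the fit (adjusted p = 0.00939). The receptor that signals IL-1 and the decoy for IL-1 thus had their highest level in different populations, Il1r1 in CD45RBlow and Il1r2 in Treg cells.

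Neighbours on the chromosome did not all belong to the same group. From Il1r2 onwards the genes were highest in Treg, CD45RBlow, Treg, CD45RBlow and CD45RBlow cells, counting members only. Il1rl2, which lies between Il1r1 and Il1rl1, averaged 4.32 ± 0.13 in Treg, 4.40 ± 0.07 in CD45RBlow and 4.67 ± 0.22 in CD45RBhigh cells (SD, n = 3, 4 and 4). It was lower in Treg than in CD45RBhigh cells by a log2 difference of -0.35 (adjusted p = 0.0486), with overlapping arrays. That call held only without Treg replicate 4 or CD45RBhigh replicate 4 and ended without each of the other 9 arrays (adjusted p up to 0.173).

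The arrays of a population split by replicate number, 1 and 2 against 3 and 4, and no label names this split. With the population in the model, 20.6% of all probe sets differed between these sets, and among the 6 genes Il1r2 (0.61 higher in replicates 1 and 2, adjusted p = 0.0108) and Il18r1 (0.25, adjusted p = 0.0311) did. In CD45RBlow cells both arrays of replicates 1 and 2 lay above those of replicates 3 and 4 for 6 of the 6 genes, where this held for 24.2% of all probe sets. In Treg cells replicates 1 and 2 lay above replicate 4 for 5 of 6 genes, all but Il1r1, against 28.7% of all probe sets. In CD45RBhigh cells the same held for 1 of 6, Il18r1, against 19.7%. What the split marks was not tested.

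The differences between CD45RBlow and CD45RBhigh cells were larger within replicates 1 and 2 than within replicates 3 and 4 for all 6 genes. Il1rl1 differed by 2.81 within replicates 1 and 2 and by 1.97 within replicates 3 and 4, and Il18rap by 1.57 and 1.13. Il1r1 differed by 1.33 and 0.63, and Il1r2 by 1.59 and 0.73. The smallest were those of Il18, at 0.91 and 0.35, and Il18r1, at 0.64 and 0.40. Within replicates 1 and 2 all 6 passed, and within replicates 3 and 4 only Il1rl1, Il1r1 and Il18rap passed (adjusted p = 0.0256, 0.0281 and 0.00848). Over all probe sets, the calls in this comparison were 63 within replicates 3 and 4, against 157 from all arrays. Under the alternatives other than leaving out an array, replicates 1 and 2 alone among them, these calls numbered 63 to 271. No test of the difference between the sets was run.

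Treg cells had 1 array in replicates 3 and 4, so tests there take their spread from the CD25- arrays alone and assume that the lone Treg array varies like them. Treg minus CD45RBhigh was 4.35 and 3.79 for Il1rl1 within replicates 1 and 2 and within replicates 3 and 4, 3.55 and 2.65 for Il1r2, and 1.54 and 1.00 for Il18. All of these passed, the values from replicates 3 and 4 under that assumption. Treg minus CD45RBlow was 1.55 and 1.82 for Il1rl1, 1.96 and 1.92 for Il1r2, and 0.63 and 0.65 for Il18. It was -1.25 and -0.94 for Il18rap, -0.73 and -0.58 for Il18r1, and -0.98 and -0.23 for Il1r1. All 6 passed within replicates 1 and 2, and Il1r2 and Il18rap passed within replicates 3 and 4 under the same assumption (adjusted p = 0.0106 and 0.0208). Every one of these differences kept its direction. Over all probe sets, 185 passed in Treg against CD45RBlow cells within replicates 1 and 2, against 156 from all arrays.

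The other ligands of the family gave no call. Besides Il18, 9 of the 10 other listed ligands and antagonists were measured, and 0 of them passed in any comparison in limma. At an unadjusted p under 0.05, 1 was higher in Treg than in CD45RBhigh cells, 2 were higher in Treg than in CD45RBlow cells, and 3 were lower in CD45RBlow than in CD45RBhigh cells. Over the whole array, 374, 281 and 354 of the 1246 probe sets met that cut in the same comparisons, in either direction. The counts of the 9 ligands and antagonists were not tested against this share. Il33, the ligand of Il1rl1, was near background in all populations, at 2.92 ± 0.01 in Treg, 2.75 ± 0.09 in CD45RBlow and 2.87 ± 0.04 in CD45RBhigh cells (SD, n = 3, 4 and 4). Il1b averaged 5.04 ± 0.09, 4.95 ± 0.08 and 5.06 ± 0.04 in the same order, and Il1a 3.90 ± 0.06, 3.78 ± 0.06 and 3.87 ± 0.07. With the replicate number as a block Il1rn, the IL-1 receptor antagonist, passed as higher in Treg than in CD45RBhigh cells (0.22, adjusted p = 0.0492). It then also passed as higher in Treg than in CD45RBlow cells (0.23, adjusted p = 0.0499). In the main limma model neither passed (adjusted p = 0.0535 and 0.0578). Il1rn was near background in CD45RBhigh (3.60) and CD45RBlow cells (3.59).

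Of the 5 other receptors of the family 3 were measured. Il1rap, the accessory chain of Il1r1 and Il1rl1, averaged 4.46 ± 0.24 in Treg, 4.32 ± 0.24 in CD45RBlow and 4.33 ± 0.09 in CD45RBhigh cells (SD, n = 3, 4 and 4), and did not pass in any comparison (adjusted p = 0.637, 0.643 and 0.995). A dimmer probe set of Il1rap did not pass either, at a log2 difference of -0.23 for Treg minus CD45RBlow (adjusted p = 0.199), where the brighter one gave 0.13. With the replicate number as a block the dimmer one passed there (adjusted p = 0.0460). Il1rapl2 did not pass, and Il1rl2 is given above. Toll-like receptors and the shared signalling genes Myd88, the Irak kinases and Traf6 were not analysed here.

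Among partners and outputs of type 1 responses, in which IL-18 acts with IL-12, 6 of 8 genes were measured. Il12rb1, a chain of the IL-12 receptor, averaged 7.96 ± 0.04 in Treg, 7.89 ± 0.16 in CD45RBlow and 5.83 ± 0.23 in CD45RBhigh cells (SD, n = 3, 4 and 4). It rose in Treg over CD45RBhigh cells by 2.12 (adjusted p = 2.73e-07) and in CD45RBlow over CD45RBhigh cells by 2.05 (adjusted p = 4.93e-07). Ifng, the type 1 effector cytokine, averaged 6.80 ± 0.18, 9.32 ± 0.65 and 6.13 ± 0.57 in the same populations. It was lower in Treg than in CD45RBlow cells, with a log2 difference of -2.52 (adjusted p = 0.000485), and 3.19 higher on that scale in CD45RBlow than in CD45RBhigh cells (adjusted p = 4.76e-05). Il12rb2, the other chain, was lower in Treg than in CD45RBlow cells, with a log2 difference of -1.26 (adjusted p = 0.000185). Its Treg mean was near background, so the size of this difference may be understated. In CD45RBlow over CD45RBhigh cells Il12rb2 rose by 0.94 (adjusted p = 0.000969), and Ifngr2, a chain of the interferon-gamma receptor, was lower, with a log2 difference of -0.59 (adjusted p = 0.000856). Higher and lower calls in this list were 1 and 1 in Treg against CD45RBhigh, 1 and 2 in Treg against CD45RBlow, and 3 and 1 in CD45RBlow against CD45RBhigh cells. With the replicate block there were 2 and 1, 2 and 2, and 3 and 1. The call of Ifngr2 in Treg against CD45RBhigh (-0.34, adjusted p = 0.0313) ended without any of the 3 Treg arrays or CD45RBhigh replicate 1, 3 or 4 (adjusted p up to 0.129). That of Ifngr1 in Treg against CD45RBlow (0.73, adjusted p = 0.0414) held only without CD45RBlow replicate 1 or 2 or CD45RBhigh replicate 1 (otherwise adjusted p up to 0.149).

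In the list of type 2 responses, in which IL-33 acts through Il1rl1, 6 of 8 genes were measured. Areg, a growth factor of type 2 and tissue repair responses, averaged 6.77 ± 0.57 in Treg, 4.997 ± 0.73 in CD45RBlow and 3.78 ± 0.18 in CD45RBhigh cells (SD, n = 3, 4 and 4). It rose by 2.99 in Treg over CD45RBhigh (adjusted p = 9.05e-05), by 1.77 in Treg over CD45RBlow (adjusted p = 0.00643) and by 1.21 in CD45RBlow over CD45RBhigh cells (adjusted p = 0.0352). The last call held only without Treg replicate 1 or 4 or CD45RBlow replicate 3 or 4 (otherwise adjusted p up to 0.103). Il4, the type 2 cytokine, averaged 3.96 ± 0.34, 6.62 ± 0.50 and 4.07 ± 0.08, and was 6.30-fold lower in Treg than in CD45RBlow cells (adjusted p = 1.75e-05). In CD45RBlow over CD45RBhigh cells Il4 rose by 2.54 (adjusted p = 1.27e-05) and Il9r, the IL-9 receptor, by 0.44 (adjusted p = 0.0144). Higher and lower calls were 1 and 0 in Treg against CD45RBhigh, 1 and 1 in Treg against CD45RBlow, and 3 and 0 in CD45RBlow against CD45RBhigh cells. With the replicate block they were 1 and 0, 2 and 1, and 3 and 1.

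In the list of type 17 responses, in which IL-1 acts through Il1r1, 8 of 9 genes were measured. Ccr6, the chemokine receptor of these cells, averaged 9.53 ± 0.33 in Treg, 8.24 ± 0.53 in CD45RBlow and 6.22 ± 0.21 in CD45RBhigh cells (SD, n = 3, 4 and 4). It rose by 3.31 in Treg over CD45RBhigh, by 1.30 in Treg over CD45RBlow and by 2.01 in CD45RBlow over CD45RBhigh cells (adjusted p = 2.71e-06, 0.00598 and 0.000150). Il6ra, the IL-6 receptor, was lower in both, with log2 differences of -0.81 for Treg minus CD45RBhigh and -0.72 for CD45RBlow minus CD45RBhigh (adjusted p = 0.000303 and 0.000675). Il6st, the signalling chain that Il6ra uses, averaged 9.97 ± 0.10 in Treg, 9.65 ± 0.08 in CD45RBlow and 10.27 ± 0.17 in CD45RBhigh cells (SD, n = 3, 4 and 4). Its log2 difference was -0.62 for CD45RBlow minus CD45RBhigh (adjusted p = 0.000481). It was -0.30 for Treg minus CD45RBhigh (adjusted p = 0.0461), a call that held only without CD45RBhigh replicate 2 or 3 (otherwise adjusted p up to 0.144). It was 0.32 for Treg minus CD45RBlow (adjusted p = 0.0450), which held only without CD45RBhigh replicate 2, 3 or 4 (otherwise adjusted p up to 0.168). Il21, which encodes a cytokine, was near background in Treg and CD45RBhigh cells, so the size of its differences may be understated. It rose by at least 2.62 in CD45RBlow over CD45RBhigh cells (adjusted p = 0.00974). Treg minus CD45RBlow was -2.27 (adjusted p = 0.0304), a call that ended without any of the 3 Treg arrays or CD45RBlow replicate 1 (adjusted p up to 0.0937). Higher and lower calls were 1 and 2 in Treg against CD45RBhigh, 2 and 1 in Treg against CD45RBlow, and 4 and 2 in CD45RBlow against CD45RBhigh cells. With the replicate block they were 1 and 2, 2 and 3, and 4 and 2.

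The named genes whose centred profile over the 11 arrays lay closest to that of each member were found among 903 genes, by the root-mean-square (RMS) difference. This is a description without a test. For Il1rl1, whose own profile had an RMS of 1.70 about its mean, they were Il2rb, a chain of the IL-2 receptor (0.38), Ccr6 (0.40) and the integrin gene Itgae (0.41). For Il1r2 (own RMS 1.35) they were Areg (0.22), the cytokine gene Il10 (0.24) and the chemokine gene Cxcl2 (0.45). Cxcl2 was near background in CD45RBlow (3.23) and CD45RBhigh cells (2.78). For Il18 (own RMS 0.58) they were the galactosyltransferase genes B4galt4 (0.18) and Ggta1 (0.20) and the transcription factor gene Prdm1 (0.19).

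For Il18rap (own RMS 0.62) the closest were the cytokine gene Csf2 (0.22), the chemokine receptor gene Ccr10 (0.23) and Klrb1f (0.24). For Il1r1 (own RMS 0.47) they were the sialyltransferase gene St6galnac1 (0.17), the glycosyltransferase gene Gcnt2 (0.20) and Csf2 (0.21). Gcnt2 was near background in Treg (3.33) and CD45RBhigh cells (3.20), and St6galnac1 in CD45RBhigh cells (3.62). For Il18r1 (own RMS 0.32) they were the Wnt receptor gene Fzd5 (0.16), the IL-9 receptor gene Il9r (0.18) and St6galnac1 (0.21). Among the members themselves the closest pair was Il1r1 and Il18rap (0.22), then Il1r1 and Il18r1 (0.27) and Il18r1 and Il18rap (0.37). Il1rl1 and Il1r2 lay 0.61 apart, and the most distant pair was Il1rl1 and Il18r1 (1.70).

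**Figure D4:**
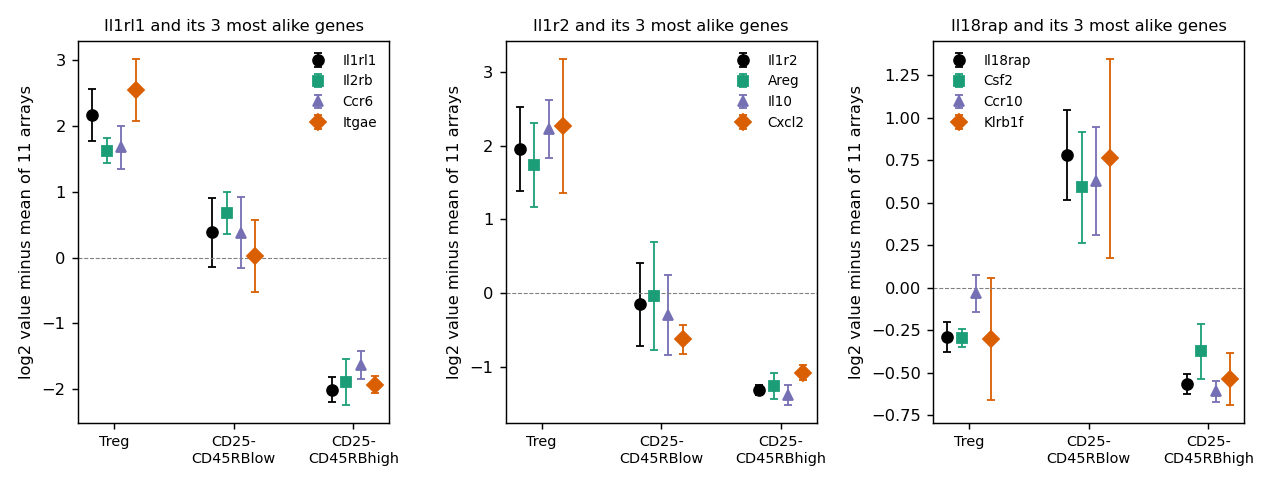
Mean and SD in each population of the log2 value minus the mean of all 11 arrays (vertical axis) for Il1rl1, Il1r2 and Il18rap, each beside the 3 genes with the smallest RMS difference from it. The genes beside Il1rl1 and Il1r2 are highest in Treg cells, and those beside Il18rap are highest in CD45RBlow cells. Cxcl2, beside Il1r2, is near background in both CD25- populations.

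Other cells carry receptors of this family, and their markers were followed on the same arrays as means of log2 values over the measured genes of each list. Of 7 markers of mast cells, basophils and type 2 innate lymphoid cells 3 were measured (Kit, Il17rb and Il9r), at 4.92 to 5.04 in Treg, 5.03 to 5.39 in CD45RBlow and 4.22 to 4.56 in CD45RBhigh arrays. Il17rb, an IL-25 receptor chain, averaged 6.38 ± 0.02 in Treg, 7.45 ± 0.36 in CD45RBlow and 5.26 ± 0.21 in CD45RBhigh cells (SD, n = 3, 4 and 4), and differed in every comparison. Kit, the stem cell factor receptor, averaged 4.43 ± 0.13 in Treg, 3.85 ± 0.10 in CD45RBlow and 3.74 ± 0.24 in CD45RBhigh cells, and rose in Treg over CD45RBhigh (0.70, adjusted p = 0.00163) and over CD45RBlow cells (0.59, adjusted p = 0.00732). Of 9 natural killer and CD8 T cell markers 5 were measured, at 3.38 to 3.54 in Treg, 4.55 to 4.91 in CD45RBlow and 4.73 to 4.97 in CD45RBhigh arrays, with 2 of the 5 near background in all populations. Higher and lower calls in this list were 0 and 3 in Treg against CD45RBhigh, 0 and 2 in Treg against CD45RBlow, and 1 and 1 in CD45RBlow against CD45RBhigh cells. Klrd1, a lectin-like receptor chain, averaged 3.93 ± 0.47 in Treg, 8.28 ± 0.22 in CD45RBlow and 9.22 ± 0.21 in CD45RBhigh cells (SD, n = 3, 4 and 4). Treg minus CD45RBlow was -4.35 for Klrd1 (adjusted p = 1.12e-07). Klra8 averaged 3.87 ± 0.08, 3.95 ± 0.12 and 4.27 ± 0.23 in the same populations. Klra3, near background throughout, averaged 2.61 ± 0.01, 2.98 ± 0.20 and 3.05 ± 0.25. Klrd1, Klra8 and Klra3 thus had their highest means in CD45RBhigh cells. Between CD45RBlow and CD45RBhigh cells only Klrd1 of these passed (-0.94, adjusted p = 0.00581). Klra8 and Klra3 did not (adjusted p = 0.0872 and 0.701). The calls of Klra8 and Klra3 in Treg against CD45RBhigh ended without any of the 3 Treg arrays or CD45RBhigh replicate 1 or 4. Other single arrays also ended them (adjusted p up to 0.125 and 0.106). Klrc1, which pairs with Klrd1, averaged 4.20 ± 0.02, 5.20 ± 0.27 and 4.61 ± 0.24 and was highest in CD45RBlow cells. Klrk1 was near background throughout, at 2.80, 3.03 and 2.87. Its mean was also highest in CD45RBlow cells, without a call in any comparison. Klrc1 was lower in Treg than in CD45RBlow cells, with a log2 difference of -0.99 (adjusted p = 0.00104). In CD45RBlow over CD45RBhigh cells it rose by 0.59 (adjusted p = 0.0188), a call that ended without CD45RBlow replicate 1 or 2 (adjusted p up to 0.0605). Of 9 myeloid and dendritic markers 4 were measured, at 3.91 to 4.01 in Treg, 3.88 to 4.04 in CD45RBlow and 3.95 to 4.04 in CD45RBhigh arrays, with 2 of the 4 near background in all populations and 0 called in any comparison. Of 6 B cell markers 2 were measured, at 7.24 to 7.40 in Treg, 6.82 to 7.19 in CD45RBlow and 6.78 to 6.96 in CD45RBhigh arrays. Their higher and lower calls were 2 and 0 in Treg against CD45RBhigh, 1 and 1 in Treg against CD45RBlow, and 1 and 0 in CD45RBlow against CD45RBhigh cells. Both calls in Treg against CD45RBhigh ended without Treg replicate 1 (adjusted p = 0.0734 and 0.0815). The lower call in Treg against CD45RBlow ended without any of the 3 Treg arrays or CD45RBlow replicate 2 or 3 (adjusted p up to 0.0892). The part of such cells in the levels of Il1rl1, Il18r1 and Il18rap was not tested. Of 8 Treg markers 4 were measured, Il2ra among them. All 4 rose in Treg over both CD25- populations and in CD45RBlow over CD45RBhigh cells, as Il1rl1, Il1r2 and Il18 did. For all 7 activated and memory markers, higher and lower calls were 3 and 0, 1 and 5, and 7 and 0 in the same order of comparisons. For 3 of 5 naive markers they were 0 and 2, 0 and 1, and 0 and 3.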

How the data were processed

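Total RNA of 11 sorted samples was amplified, labelled with biotin and hybridised to 1 array each. The table that the authors deposited holds 1 log2 value per probe set and array, computed with RMA (version not given in the sources used here), per the submitters' processing notes. RNA was extracted with Trizol per the labels' protocols and with an RNeasy kit per the series text. No values were changed, filtered or imputed here. RefSeq identifiers named 963 probe sets (909 genes) through a RefSeq table of GRCm38.p6, and 283 were left unnamed. The number of arrays limits the precision.

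Comparisons used limma 3.58.1 (R 4.3.3). Its model had a mean for each population and used every array (residual degrees of freedom 8, prior 2.87). Tests were two-sided, and p-values were adjusted by Benjamini-Hochberg within a comparison, over the 1246 probe sets, with a threshold of 0.05. The fit was tested on simulated data with independent noise on each array. These had no split by replicate number, so that test does not cover the split seen here. The 6 genes, the gene lists, the replicate sets and the alternatives were chosen with earlier results of these data known. Besides the members, up to 4 called genes per pathway list and comparison were named, by smallest adjusted p, with Il2ra as the check of the sort and the 3 most alike genes per member. Uncalled genes of the ligand and receptor lists (Il33, Il1a, Il1b, Il1rn, Il1rap and Il1rapl2) and markers (Cd2, Kit, Il17rb, Klrd1, Klrc1, Klra8, Klra3 and Klrk1) were named after their values were seen.

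Replicate numbers come from the labels. Deviations from the population mean of arrays with the same number correlated at 0.31 to 0.56 (median 0.46, 10 pairs), against -0.65 to 0.58 (median -0.31, 30 pairs) for other numbers. These ranges overlap, and whether numbers pair the samples is not settled. The main model has no pairing, and the replicate block is an alternative. Others were the arrays of 2 populations only, the replicate set as a block or alone, 2 further scalings, a filter on dim probe sets, another moderation, the mean of a gene's probe sets, and leaving out each array. The single value compared by permutation used exact enumeration. Plots were made in Python 3.11.15 (matplotlib 3.10.9).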

Additional observations from a re-analysis of the deposited data

How the results depend on the processing

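The 6 genes gave 378 results under alternatives, of which 349 kept their direction and side of the threshold, 25 lost the call, 4 gained one and 0 reversed. The lost and gained calls of single genes stand beside them above, and the replicate block changed no call of the 6 genes. Members called in Treg against CD45RBhigh were 5 in place of 3 with only the arrays compared, and 5 with only replicates 1 and 2, the added ones being Il1r1 (adjusted p = 0.0397 in replicates 1 and 2) and Il18rap (adjusted p = 0.0239). Over all 1246 probe sets, the calls in this comparison were 210 and 257 under these settings, in place of 235. With only replicates 3 and 4, members called were 2 in place of 6 in Treg against CD45RBlow and 3 in place of 6 in CD45RBlow against CD45RBhigh. Fewer arrays were then fitted, with 1 Treg array that is assumed to vary like the others. Leaving out each array gave 3 members in Treg against CD45RBhigh, 4 to 6 in Treg against CD45RBlow and 3 to 6 in CD45RBlow against CD45RBhigh, the 3 of the last without CD45RBlow replicate 1. Over all probe sets, replicates 3 and 4 alone gave 88, 49 and 63 calls, against 235, 156 and 157 from all arrays. The replicate block gave 330, 245 and 271, and the replicate set as a block 238 in Treg against CD45RBlow and 247 in CD45RBlow against CD45RBhigh. Leaving out each array gave 164 to 227, 110 to 162 and 113 to 151. Further scalings moved the median of all probe sets by at most 0.02. Signal over background limits Il18 in CD45RBhigh cells and Il33 in all populations. No alternative was left out.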
